A study of Sus scrofa with 24 samples.

Results

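Pig bronchial epithelium that had met the bacterial protein flagellin 24 h earlier was compared with epithelium given only saline. The comparison takes 8 of the 24 libraries of the series, chosen by their labels. In 4 of them the cells had a 1 h preincubation with DMSO, a solvent, followed by 24 h with flagellin at 100 ng/ml. In the other 4, numbered in the same way, the DMSO preincubation was followed by PBS for 24 h. All of the cells came from the bronchi of wild type 1-month-old pigs, were freed with proteases, seeded on collagen-treated membranes and cultured at an air-liquid interface, where the upper side of the layer is exposed to air. The same treatments lasting 2 h, in separate libraries (4 flagellin and 4 PBS), are used below to follow genes over time. They and the libraries with the p38 kinase inhibitor SB203580 also enter the common fit, with its count filter, scaling and estimate of the spread.

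Flagellin is the subunit of the bacterial flagellum and the ligand of TLR5, a receptor on airway epithelial cells. TLR5 signals through the adaptor MYD88 to NF-kB and to MAP kinases, which switch on chemokines and cytokines that recruit and activate leukocytes. NF-kB also switches on its own inhibitors, which end the first wave of transcription. The lining in which this happens is built of basal stem cells, ciliated cells that move mucus, goblet cells that make the gel-forming mucins, and club cells that secrete protective proteins.

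Total counts of the 8 libraries lay between 29956872 and 34495835, and 15903 to 16524 pig genes had a count in each. Levels are in CPM, the count of a gene for each 1e6 counts of its library, scaled by library size and TMM factor, and a count of 0 allows up to 3 counts, which is 0.087 to 0.1001 CPM. This covers counting error only. The libraries formed 2 sets. On the first principal component of the 8 libraries (68.6% of the variance) replicates 3 and 4 had scores of 44.3 to 57.9, and replicates 1 and 2 had scores of -61.6 to -47.2. The second (18%) placed flagellin replicate 2 at 64.2 and the other 7 libraries between -28.0 and 11. Flagellin and PBS libraries were therefore matched by number, and values below are given for replicates 1, 2, 3 and 4 in that order. The spread of the matched log2 differences over the 14172 genes tested, as an SD, was 0.331, 0.754, 0.365 and 0.421. A difference beyond 2-fold was seen in 282, 1834, 383 and 630 genes, so replicate 2 held by far the most. In the whole series 7 genes of the Y chromosome had at least 100 counts in every library of replicates 1 and 2 and at most 10 in every library of replicates 3 and 4, so these sets did not come from the same animals. The labels do not say whether replicates within a set came from separate animals or cultures, so p-values measure only the spread between these libraries. Epithelial markers were abundant, with EPCAM at 247 to 372 CPM and CDH1, which is E-cadherin, at 1090 to 1450 CPM. Of 20 leukocyte markers 8 passed the count filter, while CD3E and CD163 had 0 counts in all 8 libraries.

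After 24 h no gene passed the test. Of 14172 genes 0 (0%) were higher and 0 (0%) were lower in flagellin at an adjusted p under 0.05 by edgeR's quasi-likelihood test with the replicate number as a block, and the smallest adjusted p was 0.418. At an unadjusted p under 0.05 there were 244 higher genes (1.72%) and 293 lower genes (2.07%), 3.79% together. Together they are fewer than this threshold alone passes when no gene differs. The other tools run on the same libraries were limma, which also called 0 genes (612 at an unadjusted p under 0.05), and DESeq2, which called 3 genes higher and 1 lower. In all 4 replicate numbers 910 genes (6.42%) were higher and 1076 (7.59%) lower, shares near those that random signs would give. In 105 genes (0.741%) the values of the groups did not overlap. The differences named below are therefore values and not calls, unless a call is stated. Most genes named outside a panel were chosen for 1 direction in all 4 numbers and a small p. For those genes the shared direction is a condition of choice and no support of its own.

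Among the higher genes with the smallest p were alarmins and a bacterial wall hydrolase. IL1A, an alarmin of the interleukin 1 family that damaged or activated epithelium releases, was at 82.5, 84.6, 64.1 and 64.3 CPM in the flagellin libraries, against 53.0, 54.9, 28.2 and 37.9 CPM in the PBS libraries. Every flagellin library lay above every PBS library. The log2 difference was 0.80 (SE 0.149, adjusted p = 0.468), and it stayed between 0.62 and 0.97 under all alternative settings. S100A12, a calcium-binding alarmin, was at 1115, 846, 299 and 378 CPM in the flagellin libraries, against 648, 661, 154 and 199 CPM in the PBS libraries. It was higher in flagellin in each of the 4 numbers, while the groups overlapped, because replicates 1 and 2 lay above replicates 3 and 4 in both. Its difference was 0.76 (SE 0.155, adjusted p = 0.815).

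S100A9, a subunit of calprotectin that was named by its position in the genome, was at 109.9, 67.6, 23.0 and 42.5 CPM in the flagellin libraries, against 40.3, 53.6, 8.04 and 17.1 CPM in the PBS libraries. The matched log2 differences were 1.45, 0.33, 1.51 and 1.31, the smallest of them in replicate 2, and the fitted difference was 1.14 (SE 0.362, adjusted p = 0.973). Its partner in calprotectin, S100A8, differed by 0.58 (SE 0.254) and was picked after its values were seen. These S100 proteins are abundant in neutrophils as well as in stressed epithelium. Over 6 leukocyte markers the mean log2 level was 3.07, 3.20, 2.52 and 2.65 in flagellin, against 2.98, 3.06, 2.76 and 2.62 in PBS, and PTPRC, the common leukocyte antigen CD45, had at most 4 counts in any of the 8 libraries. The part of leukocyte RNA in the S100 values was not tested.

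PGLYRP2, an enzyme that cleaves bacterial peptidoglycan, was at 9.04, 24.2, 3.52 and 4.00 CPM in the flagellin libraries, against 1.61, 2.4, 2.38 and 2.15 CPM in the PBS libraries. Again the groups did not overlap. The distance was wide in replicates 1 and 2 and narrow in replicates 3 and 4, with matched log2 differences of 2.45, 3.30, 0.55 and 0.88. The fitted difference was 1.86 (SE 0.403, adjusted p = 0.967). DESeq2 with the same block called IL1A (adjusted p = 0.00112), S100A12 (adjusted p = 0.00495) and PGLYRP2 (adjusted p = 0.00248) higher.

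**Figure D1:**
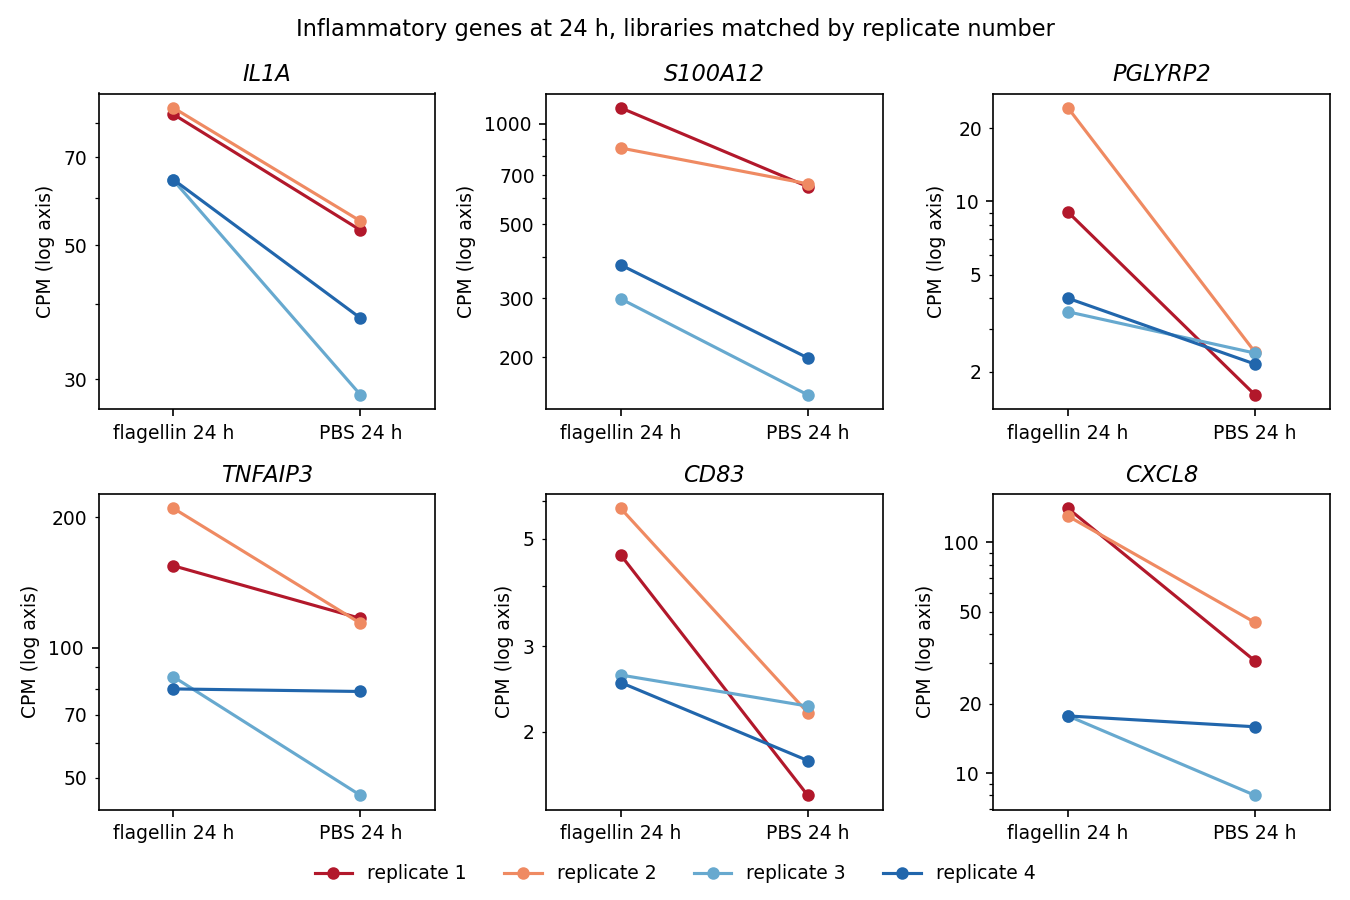
CPM on a log axis of 6 inflammatory genes in the flagellin and PBS libraries at 24 h, each line joining the libraries of 1 replicate number. All lines of these genes fall to the right, from flagellin to PBS, and for CXCL8 the libraries of replicates 1 and 2 stand above those of replicates 3 and 4.

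Genes that NF-kB induces, and that in turn restrain it, stood slightly above PBS. TNFAIP3, the ubiquitin-editing enzyme A20, was at 154, 209.8, 85.6 and 80.2 CPM in the flagellin libraries, against 117, 114, 45.5 and 79.1 CPM in the PBS libraries. All numbers differed upward, by 0.40, 0.88, 0.91 and 0.02 on the log2 scale, so that replicate 4 hardly differed. The fitted difference was 0.56 (SE 0.135, adjusted p = 0.973). NFKBIA, which keeps NF-kB out of the nucleus, was at 239, 259, 123 and 121 CPM in the flagellin libraries, against 153, 168, 87.8 and 91.8 CPM in the PBS libraries. Its matched differences, 0.64, 0.62, 0.48 and 0.39, were of similar size in every number. ZC3H12A, an endonuclease that degrades cytokine mRNA, had a fitted log2 difference of 0.49 (SE 0.158). That of TNIP1, a partner of A20, was 0.43 (SE 0.160), and that of NFKBIZ, a nuclear member of the inhibitor family, 0.44 (SE 0.227).

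Of the 22 tested members of the list of NF-kB inhibitors and feedback genes, 0 passed the adjusted threshold at 24 h. At an unadjusted p under 0.05, 4 were higher and 0 lower, and 8 were higher and 0 lower in all 4 numbers. The shares higher over all genes tested were 1.72% and 6.42%. The list's median log2 difference was 0.17, where all genes tested had 0.01. Among the 12 NF-kB subunits and kinases, 2 were higher and 1 lower at an unadjusted p under 0.05, with a median of 0.20. The noncanonical subunits NFKB2 and RELB had differences of 0.33 (SE 0.121) and 0.36 (SE 0.154), while the kinase IKBKB had -0.19 (SE 0.0860). Without flagellin replicate 2 the median of this list was 0.04.

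IRF1, a transcription factor of interferon and NF-kB target genes, was at 42.3, 48.3, 21.6 and 18.6 CPM in the flagellin libraries, against 29.4, 30.2, 15.0 and 16.4 CPM in the PBS libraries. Its fitted log2 difference was 0.49 (SE 0.120). CD83, a surface glycoprotein of activated cells, was at 4.63, 5.78, 2.62 and 2.53 CPM in the flagellin libraries, against 1.48, 2.19, 2.26 and 1.74 CPM in the PBS libraries, with no overlap between the groups. Matched differences of CD83 were 1.61, 1.38, 0.21 and 0.52, larger in replicates 1 and 2 than in replicates 3 and 4, and the fitted difference was 0.93 (SE 0.240).

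At 24 h the chemokines CXCL8, CCL20 and CXCL2 had higher levels in every library of replicates 1 and 2 than in any of replicates 3 and 4, with flagellin or with PBS. CXCL8, which attracts neutrophils, was at 140.1, 129.7, 17.7 and 17.7 CPM in the flagellin libraries, against 30.6, 44.9, 8.01 and 15.9 CPM in the PBS libraries. It was higher in flagellin in all 4 numbers, with matched log2 differences of 2.19, 1.53, 1.14 and 0.16. The flagellin levels of replicates 3 and 4 nevertheless lay below the PBS levels of replicates 1 and 2. Its fitted difference was 1.30 (SE 0.379, adjusted p = 0.973). CCL20, which attracts dendritic cells and lymphocytes and was named by position, was at 40.3, 42.5, 1.35 and 1.48 CPM in the flagellin libraries, against 8.99, 10.5, 0.835 and 1.68 CPM in the PBS libraries. Replicates 1 and 2 held the difference, whereas replicate 4 was lower in flagellin. The chemokine CXCL2, a neighbour of CXCL8, was at 101, 46.7, 13.7 and 12.5 CPM in the flagellin libraries, against 63.8, 54.9, 5.04 and 8.81 CPM in the PBS libraries. Replicate 2 ran the other way from the rest. CXCL8, CXCL2 and another related neighbour, AMCF-II (difference -0.14, SE 0.550), lie close together on chromosome 8 without overlapping. The gene counted as CXCL2 has a long span, 70054756 to 70163415. Whether these related genes share reads, or reads of other genes enter the CXCL2 counts, was not tested.

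In the list of 14 tested chemokines 2 were higher and 0 lower at an unadjusted p under 0.05, where 1.72% of all genes tested were higher, and the median was 0.03. The monocyte chemokine CCL2 was at 13.8, 2.65, 1.96 and 2.67 CPM in the flagellin libraries, against 21.3, 15.4, 1.89 and 2.27 CPM in the PBS libraries, lower in replicates 1 and 2 and slightly higher in replicates 3 and 4.

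Of 18 tested cytokines and growth factors of inflammation, 5 were higher and 0 lower at an unadjusted p under 0.05, and 5 were higher and 0 lower in all 4 numbers. Among all genes tested the shares higher were 1.72% and 6.42%. The median log2 difference was 0.38, and by number the medians were 0.39, 0.35, 0.59 and 0.26. With genes under a mean of 1 CPM left out it was 0.135, and in a fit of the 8 libraries alone 0.145. CSF1, a growth factor of macrophages, was at 9.04, 18.1, 26.1 and 23.9 CPM in the flagellin libraries, against 6.71, 7.18, 18.1 and 20.8 CPM in the PBS libraries. CSF2, which acts on granulocytes and macrophages, was at 12.8, 13.0, 5.87 and 6.84 CPM in the flagellin libraries, against 8.73, 7.71, 3.0 and 4.61 CPM in the PBS libraries. In every number flagellin had the higher level, and the fitted log2 differences were 0.61 (SE 0.216) and 0.70 (SE 0.273). EREG, a ligand of the epidermal growth factor receptor from the list of repair genes, differed by 0.53 (SE 0.245).

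Some cytokines had libraries at or near the limit of counting. IL20, of the interleukin 10 family, was at 0.791, 0.560, 0.241 and 0.0851 CPM in the flagellin libraries, against 0.0963, 0.0925, 0.0309 and 0 CPM in the PBS libraries. All PBS libraries were at or under the limit that a count of 0 allows, so no fold is given. IL6 was at 0, 0.298, 0.150 and 0.170 CPM in the flagellin libraries, against 0, 0.0308, 0.0309 and 0.0622 CPM in the PBS libraries, and replicate 1 had 0 counts in both groups. TNF, named by position, was at 4.49, 0.970, 0.181 and 0.0568 CPM in the flagellin libraries, against 1.93, 2.77, 0 and 0.124 CPM in the PBS libraries, higher in replicates 1 and 3 and lower in replicates 2 and 4. CSF3, the growth factor of neutrophils, was at 0.169, 0.149, 0.181 and 0.114 CPM in the flagellin libraries, against 0.289, 0.247, 0.155 and 0.0933 CPM in the PBS libraries, too few counts to tell the groups apart.

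Genes called after 2 h were followed to 24 h, as the 2 comparisons use separate libraries, PBS included. At 2 h 168 genes were higher (1.19% of those tested) and 94 lower (0.663%) in flagellin. Of the 168, 39 (23.2%) were higher at 24 h in all 4 numbers, where the share over all genes was 6.42%. Of the 94, 27 (28.7%) were lower in all 4, where the share over all genes was 7.59%. The sizes were much smaller than before. The genes were chosen by their 2 h difference, which favours large values at 2 h, so the medians that follow do not measure a decline on their own. Genes higher at 2 h had a median log2 difference of 0.09 at 24 h, against 0.83 at 2 h, and those lower at 2 h had -0.09 at 24 h, against -0.39 at 2 h.

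The effect at 24 h minus the effect at 2 h was tested in the same fit. At an adjusted p under 0.05 it was below 0 in 40 genes (0.282%) and above 0 in 0 genes (0%), and 38 of the 40 had risen at 2 h. DESeq2 called 87 below 0 and 5 above 0. At an unadjusted p under 0.05 there were 905 genes (6.39% of 14172), 390 of them with the larger value at 24 h. This share is little above what the threshold passes when no gene differs, and none of the 390 passed the adjusted threshold. RND1, a small GTPase that loosens cell adhesion, differed by 0.06 at 24 h, against 4.34 at 2 h (change -4.27, SE 0.368, adjusted p = 2.89e-05). For IRF1 the difference was 0.49 at 24 h, against 3.37 at 2 h (change -2.88, adjusted p = 2.29e-07). For TNFAIP3 it was 0.56, against 3.25 at 2 h (change -2.69, adjusted p = 1.74e-06). These 3 genes had some of the larger declines, each above a log2 value of 2. The smallest change among the 40 was -0.57, in the gene MSRB1.

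CD83, CXCL8 and CXCL2 also had an effect that was smaller at 24 h, with changes of -3.23 (adjusted p = 0.00011), -3.05 (adjusted p = 0.0235) and -3.98 (adjusted p = 0.00874). LIF, a cytokine of the interleukin 6 family, was at 12.3, 7.24, 3.37 and 2.33 CPM in flagellin at 24 h, against 131, 107, 69.1 and 45.7 CPM in flagellin at 2 h, and its PBS libraries held 12.5, 8.14, 1.42 and 3.52 CPM at 24 h. By then its direction differed between the numbers (change -3.56, adjusted p = 0.00435). For IL1A the change was -1.59 (adjusted p = 0.00143), for NFKBIA -2.30 (adjusted p = 0.00143), for ZC3H12A -1.86 (adjusted p = 0.000734) and for CSF1 -1.79 (adjusted p = 0.0153). That of CCL2 was -3.24 (adjusted p = 0.0488), close to the threshold. Of the list of NF-kB inhibitors and feedback genes, 7 of 22 members were among the 40.

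Other genes called at 2 h had a change that did not pass. PGLYRP2 was at 1.86 at 24 h, against 2.44 at 2 h, a change of -0.58 (SE 0.553, adjusted p = 0.859). VCAM1, an adhesion molecule for leukocytes, was at 6.13, 7.01, 0.181 and 0.142 CPM in the flagellin libraries, against 2.83, 1.85, 0.0619 and 0.0311 CPM in the PBS libraries, higher in flagellin in all 4 numbers, though under 0.2 CPM in every library of replicates 3 and 4. Its fitted difference was 1.47 at 24 h, against 3.98 at 2 h, and the change had an adjusted p = 0.357. The reverse held for S100A12 and S100A9. S100A12 and S100A9 had not been called at 2 h, with differences of 0.76 and 1.14 at 24 h, against 0.32 (adjusted p = 0.391) and -0.11 (adjusted p = 0.941) at 2 h. The changes of these S100 genes did not pass (adjusted p = 0.786 and 0.712).

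The count of 40 was 26 without flagellin replicate 4 at 24 h, 23 without both libraries of replicate 3 and 25 without both of replicate 4. In the fit without the block it was 6. Fitted alone, replicates 3 and 4 gave 96 genes, whereas replicates 1 and 2 gave 2.

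**Figure D2:**
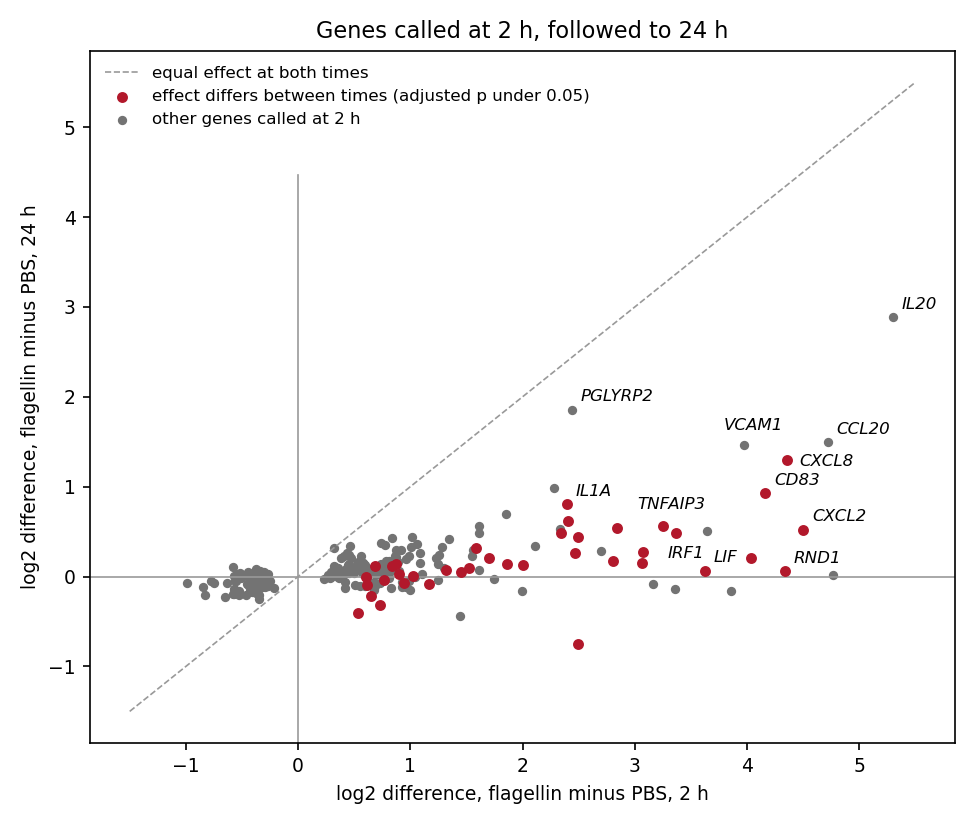
Fitted log2 difference, flagellin minus PBS, at 24 h (vertical axis) against that at 2 h (horizontal axis) for the genes called at 2 h; red points are genes whose effect differed between the times at an adjusted p under 0.05. Nearly all points of genes that rose at 2 h lie below the dashed line of equal effect, with PGLYRP2 at 1.86 and 2.44 nearest to it among the labelled genes; the height of IL20 is no measured size, since its PBS libraries at 24 h were at or under the counting limit.

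The receptors themselves were not among the higher genes. TLR5 was at 1.19, 0.634, 2.38 and 1.70 CPM in the flagellin libraries, against 1.44, 1.42, 2.35 and 2.49 CPM in the PBS libraries. In replicates 1, 2 and 4 it was lower in flagellin, and the fitted difference was -0.44 (SE 0.248). TLR2, a receptor of bacterial lipoproteins, differed by -0.44 (SE 0.278). The 20 tested members of the TLR5 signalling list had a median of 0.07, with 0 higher and 0 lower at an unadjusted p under 0.05. ICAM1, the adhesion molecule to which neutrophils bind, was at 240.1, 130.1, 245 and 250.2 CPM in the flagellin libraries, against 123, 159, 152 and 178 CPM in the PBS libraries. Replicate 2 alone was lower in flagellin. The fitted difference was 0.49 (SE 0.199), and ICAM1 was called higher, by 0.72 (adjusted p = 0.0112), once 5 libraries of the series with low secretory markers, flagellin replicate 2 at 24 h among them, were left out, a setting chosen after the data were seen. ICAM1 itself was also picked after its values were seen. S100A12 was called in the same fit, at 0.89 (adjusted p = 0.0112).

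Goblet cell genes were prominent on the lower side, and ERN2 had the smallest p of all genes. ERN2, the mucosal form of the endoplasmic reticulum stress sensor IRE1, which goblet cells use in mucin folding, was at 9.04, 3.10, 3.91 and 4.63 CPM in the flagellin libraries, against 17.5, 12.9, 6.06 and 7.13 CPM in the PBS libraries. It was lower in flagellin in each number, with matched log2 differences of -0.95, -2.04, -0.62 and -0.62. The fitted difference was -1.06 (SE 0.183, adjusted p = 0.418), and ERN2 was the gene that DESeq2 called lower (-1.05, adjusted p = 0.000469). BHLHA15, a transcription factor of secretory cell architecture, was at 3.47, 1.04, 0.241 and 0.312 CPM in the flagellin libraries, against 7.67, 6.38, 0.371 and 0.560 CPM in the PBS libraries, a difference of -1.49 (SE 0.337). AGR2, a disulfide isomerase needed for mucin assembly, was at 239, 105, 36.1 and 37.7 CPM in the flagellin libraries, against 493, 338, 64.1 and 50.5 CPM in the PBS libraries. For both genes every number was lower in flagellin, while the levels of replicates 1 and 2 exceeded those of replicates 3 and 4.

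TFF3, a trefoil peptide secreted with mucus, was at 123, 31.2, 24.7 and 20.5 CPM in the flagellin libraries, against 255, 226, 36.3 and 40.6 CPM in the PBS libraries. CLCA1, a protease of the goblet cell secretion, was at 74.9, 5.75, 3.22 and 1.48 CPM in the flagellin libraries, against 225, 159, 5.72 and 8.43 CPM in the PBS libraries. The gene counted as CLCA1 has a long span, chromosome 4, 129475947 to 129655338, and whether reads of other genes enter its counts was not tested. MUC5AC, the gel-forming mucin of airway goblet cells, was named by position and was at 1310.0, 264, 333 and 219 CPM in the flagellin libraries, against 2307, 1733, 391 and 544 CPM in the PBS libraries. In all 3 genes the 4 numbers agreed in direction and replicate 2 had the widest gap. The fitted differences were -1.38 (SE 0.370) for TFF3, -2.37 (SE 0.668) for CLCA1 and -1.22 (SE 0.403) for MUC5AC. Without flagellin replicate 2 they were -1.02, -1.75 and -0.84. MUC5B, the other gel-forming airway mucin, named by position as well, was at 95.4, 25.3, 31.9 and 32.3 CPM in the flagellin libraries, against 307, 219, 42.4 and 48.8 CPM in the PBS libraries, with a difference of -1.49 (SE 0.522).

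Among the 18 tested mucin and goblet cell genes 0 passed the adjusted threshold. At an unadjusted p under 0.05, 0 were higher and 8 lower, and again 0 were higher and 8 lower in all 4 numbers. Among all genes tested the shares lower were 2.07% and 7.59%. The median log2 difference was -0.50, with -0.60, -1.27, -0.29 and -0.29 by number. Without flagellin replicate 2 it was -0.26, and in a fit of replicates 3 and 4 alone it was -0.09. At 2 h 0 of these genes had been called and the median was 0.10. The list's mean log2 level at 2 h was 6.54, 6.42, 5.07 and 4.55 in flagellin, against 6.65, 5.66, 4.99 and 4.60 in PBS, where PBS replicate 2 lay well below its flagellin partner. At 24 h this level was 5.91, 5.01, 4.39 and 4.35 in flagellin, against 6.48, 6.26, 4.66 and 4.70 in PBS, so it was lower in flagellin in every number. In these bulk samples fewer goblet cells and less RNA per goblet cell cannot be told apart.

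**Figure D3:**
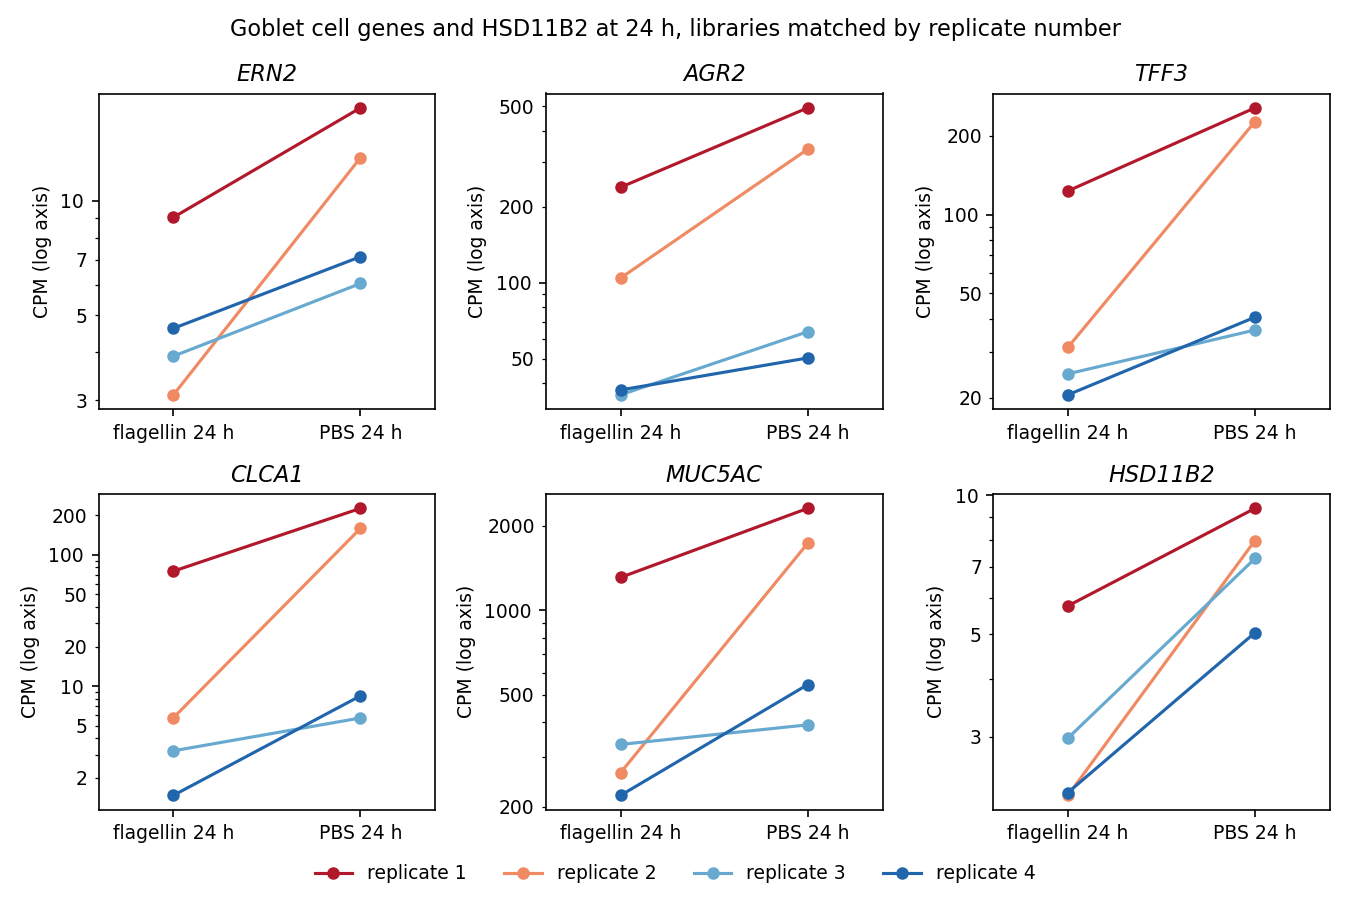
CPM on a log axis of 5 goblet cell genes and HSD11B2 in the flagellin and PBS libraries at 24 h, each line joining the libraries of 1 replicate number. All lines rise to the right, from flagellin to PBS, most steeply in replicate 2 for TFF3, CLCA1 and MUC5AC.

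Several secreted proteins of host defence were lower as well. PIGR, the receptor that carries antibodies across the epithelium, was at 663, 163, 107 and 92.1 CPM in the flagellin libraries, against 1181, 989.5, 133 and 183 CPM in the PBS libraries. LCN2, an iron-sequestering antimicrobial protein, was at 146, 23.9, 18.9 and 13.7 CPM in the flagellin libraries, against 186, 207, 19.5 and 25.5 CPM in the PBS libraries. Both were lower in flagellin in all 4 numbers, with fitted differences of -1.19 (SE 0.375) and -1.14 (SE 0.504). The gap of LCN2 in replicate 2 was far wider than in the others, and its difference without that flagellin library was -0.67. BPIFA1, a surfactant-like antimicrobial protein, was at 96.4, 1.34, 3.73 and 1.67 CPM in the flagellin libraries, against 109, 319, 9.84 and 10.8 CPM in the PBS libraries. Its matched log2 differences ran from -0.18 in replicate 1 to -7.83 in replicate 2, and the fitted value, -2.67, had an SE of 1.83. At 2 h it was the PBS library of replicate 2 that was low in these genes. BPIFA1 was at 1.25 CPM there, against 128 CPM in flagellin replicate 2 at 2 h, LCN2 at 52.7 against 173 CPM and PIGR at 364 against 666 CPM. The other numbers at 2 h had no common direction.

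WFDC2, a protease inhibitor of secretory cells, was at 1188, 363, 438 and 403 CPM in the flagellin libraries, against 1501, 1382, 616 and 609 CPM in the PBS libraries. The detoxifying enzyme FMO2 was at 154, 93.9, 166 and 146 CPM in the flagellin libraries, against 216, 179, 248 and 205 CPM in the PBS libraries, and here the groups did not overlap. CRISP3, a secreted cysteine-rich protein, was at 2017, 1104, 225 and 250.1 CPM in the flagellin libraries, against 2636, 2263, 334 and 336 CPM in the PBS libraries. All 3 were lower in flagellin in every number, which was a condition for naming them. Their fitted differences were -0.84 (SE 0.295), -0.62 (SE 0.199) and -0.61 (SE 0.158).

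SCGB3A1, a secretoglobin, was at 139, 32, 14.7 and 20.6 CPM in the flagellin libraries, against 205, 212, 17.7 and 27.1 CPM in the PBS libraries. The club cell secretoglobin SCGB1A1 was at 6.53, 3.21, 0 and 0 CPM in the flagellin libraries, against 4.75, 12.1, 0.0928 and 0.0311 CPM in the PBS libraries, so it was hardly expressed in replicates 3 and 4 and had 0 counts in both of their flagellin libraries. Of the 15 tested club and secretory cell markers 0 were higher and 2 lower at an unadjusted p under 0.05, and 0 were higher and 5 lower in all 4 numbers. Over all genes tested 2.07% were lower at that p and 7.59% were lower in all 4 numbers. Their median was -0.21, with -0.17, -0.44, -0.45 and -0.40 by number. It was -0.455 in replicates 3 and 4 alone, -0.392 without both libraries of replicate 2, -0.078 without both of replicate 3 and -0.052 without PBS replicate 3.

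SAA3, an acute-phase apolipoprotein named by position, did not follow one direction. It was at 88.4, 22.2, 33.5 and 31.4 CPM in the flagellin libraries, against 61.4, 92.5, 5.72 and 9.77 CPM in the PBS libraries, higher in flagellin in replicates 1, 3 and 4 and lower in replicate 2. The list of 19 antimicrobial and acute-phase proteins held members on both sides, 3 higher (the S100 genes above) and 4 lower at an unadjusted p under 0.05, with a median of -0.21. Over all genes tested 1.72% were higher and 2.07% lower at that p.

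Ciliated cell markers were lower as well. FOXJ1, the master regulator of motile cilia, was at 18.3, 8.17, 3.28 and 1.53 CPM in the flagellin libraries, against 19.0, 15.8, 6.06 and 6.91 CPM in the PBS libraries. The dynein chain DNAI1 was at 0.508, 0.149, 0.120 and 0.114 CPM in the flagellin libraries, against 0.578, 0.771, 0.402 and 0.560 CPM in the PBS libraries, and the radial spoke protein RSPH1 at 1.84, 0.410, 0.511 and 0.142 CPM in the flagellin libraries, against 2.22, 2.10, 0.897 and 1.09 CPM in the PBS libraries. All 3 were lower in flagellin in each number, a condition for naming DNAI1 and RSPH1, and least of all in replicate 1. The fitted differences of these 3 genes were -0.88 (SE 0.470), -1.53 (SE 0.590) and -1.39 (SE 0.653). DNAI1 in flagellin replicates 2, 3 and 4 and RSPH1 in flagellin replicate 4 lay close to the limit that a count of 0 allows. Few counts therefore stand behind the sizes of these 2 differences. Of the 26 tested ciliated cell markers 0 were higher and 18 lower in all 4 numbers, although only 2 were lower at an unadjusted p under 0.05 and 0 passed the adjusted threshold. The shares lower over all genes tested were 7.59% in all 4 numbers and 2.07% at an unadjusted p under 0.05. The median was -0.84, with -0.26, -0.99, -0.55 and -1.17 by number. The mean log2 level of the list was 2.39, 1.72, 1.4 and 1.03 in flagellin, against 2.65, 2.4, 1.83 and 1.98 in PBS. At 2 h this level was 2.79, 2.81, 1.67 and 1.24 in flagellin, against 2.66, 1.22, 2.37 and 1.66 in PBS. There it was higher in flagellin in replicates 1 and 2 and lower in replicates 3 and 4, with the widest gap in replicate 2. Fewer ciliated cells and less RNA per ciliated cell cannot be told apart here either.

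**Figure D4:**
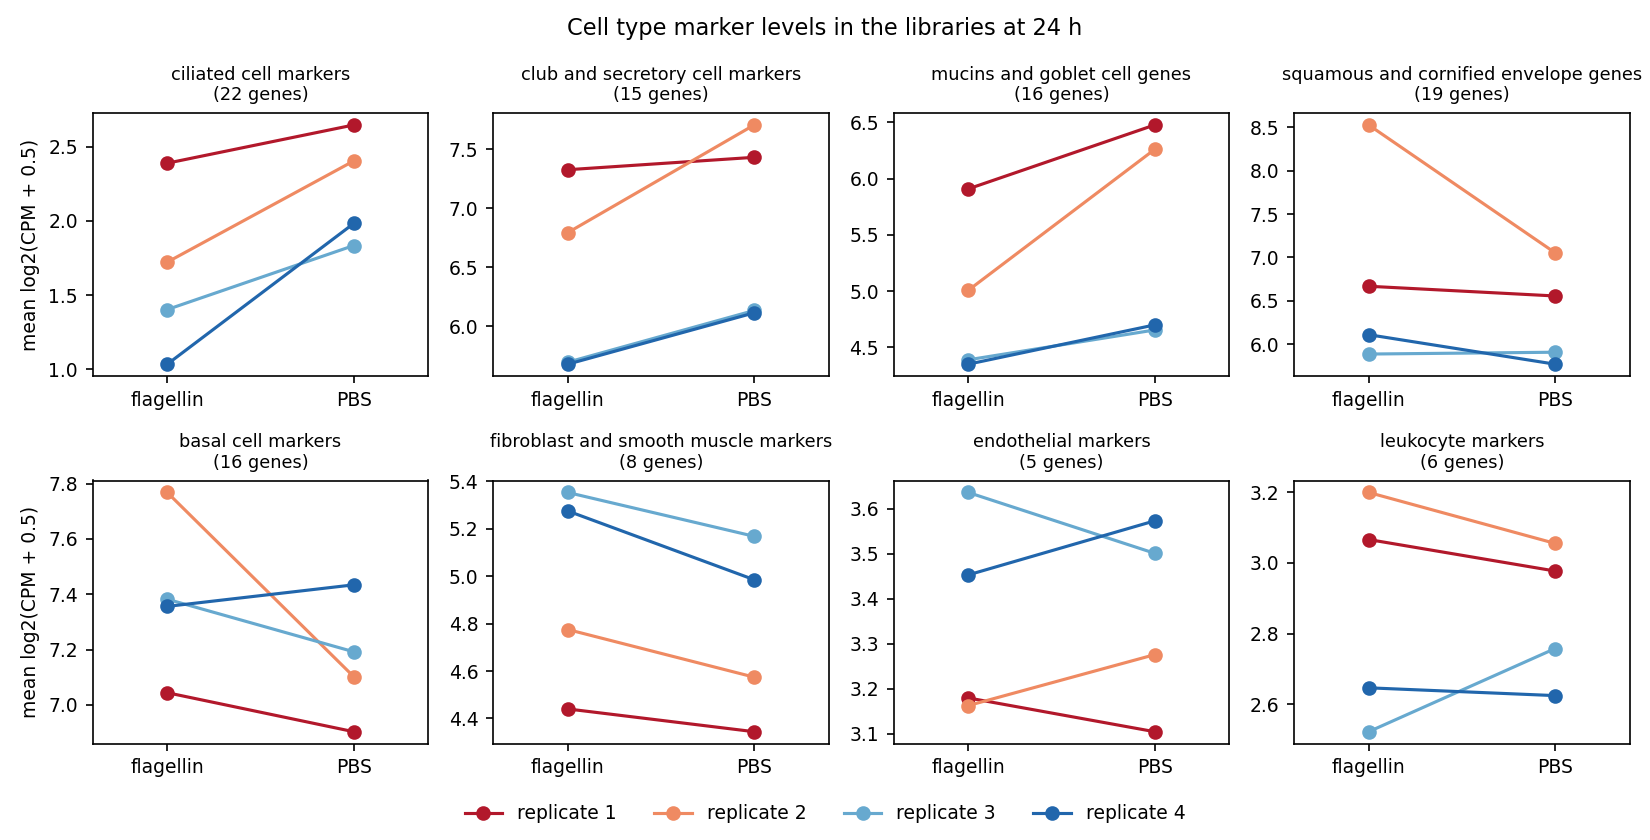
Mean log2(CPM + 0.5) of the markers of 8 cell types in the flagellin and PBS libraries at 24 h, with the number of genes behind each mean and a line per replicate number. Ciliated, club and secretory, and goblet levels are lower in flagellin in every number, and the squamous level of flagellin replicate 2, 8.53, is above all others.

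Flagellin replicate 2 differed from its PBS partner also in genes of squamous, keratinising epithelium, which airway cells can also form. CRNN, the cornified envelope protein cornulin, was at 232, 1613, 45.8 and 73.9 CPM in the flagellin libraries, against 207, 319.6, 37.1 and 48.3 CPM in the PBS libraries. TGM1, the enzyme that crosslinks that envelope, was at 99.7, 404, 46.2 and 54.5 CPM in the flagellin libraries, against 93.1, 118, 44.0 and 42.2 CPM in the PBS libraries. In both genes replicate 2 was far higher in flagellin and the other numbers differed little. The squamous list of 19 tested genes had medians of 0.10, 1.77, -0.06 and 0.18 by number and a fitted median of 0.52, which was 0.02 without flagellin replicate 2. PTGS2, the inducible cyclooxygenase, was likewise at 77.8, 284, 77.8 and 73.6 CPM in the flagellin libraries, against 69.0, 64.1, 70.6 and 70.3 CPM in the PBS libraries, and its difference of 0.73 (SE 0.407) was 0.06 without that library.

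Leaving out flagellin replicate 2 moved other named log2 differences by over 1.5 times. Without it TLR5 was at -0.25, TLR2 at -0.23, CCL2 at -0.29, NFKBIZ at 0.28 and IKBKB at -0.12. Among secreted proteins BPIFA1 was then at -1.48, BPIFB1 at -0.70 (with the library -1.54) and SCGB3A1 at -0.36 (with the library -0.84). SAA3 was at 1.17 (with the library 0.58), and SCGB1A1 changed sign, to 0.55 (with the library -0.48). The transporters SLC26A9 and CFTR were at 0.54 and -0.01, and the early response genes DUSP1 and ZFP36 at 0.02 and -0.02. The median of the cell cycle list was -0.28 and that of the ionocyte, tuft and neuroendocrine list -0.28. For antigen presentation the median was 0.09, for oxidant defence 0.06, for glycolysis and hypoxia -0.02, for sterol and fatty acid synthesis -0.03, for immediate early genes -0.06 and for interferon-stimulated genes -0.03, so the last 4 changed sign. The medians of the goblet and ciliated lists were below 0 in the other numbers too.

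TP63, the transcription factor of basal cells, was at 38.0, 55.4, 90.4 and 84.1 CPM in the flagellin libraries, against 29.5, 30.2, 88.7 and 82.6 CPM in the PBS libraries. Higher in all 4 numbers, it differed visibly only in replicates 1 and 2. Basal cell markers had 1 of 16 tested members higher at an unadjusted p under 0.05, where 1.72% of all genes tested were higher, and a median of 0.17. LAMB3 and COL17A1, which anchor basal cells to the basement membrane, differed by 0.19 (SE 0.100) and 0.15 (SE 0.0910).

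HSD11B2, the enzyme that inactivates cortisol and so protects the mineralocorticoid receptor, was at 5.76, 2.24, 2.98 and 2.27 CPM in the flagellin libraries, against 9.38, 7.99, 7.30 and 5.04 CPM in the PBS libraries. It was lower in flagellin in all 4 numbers, with matched log2 differences of -0.70, -1.81, -1.28 and -1.13, and the fitted difference, -1.27 (SE 0.310), stayed between -1.5 and -0.95 under all alternative settings. CA12, a membrane carbonic anhydrase, was at 23.1, 12.2, 7.04 and 7.24 CPM in the flagellin libraries, against 28.4, 34.9, 13.6 and 11.2 CPM in the PBS libraries. Of the 20 tested ion and water transport genes 5 were higher and 1, CA12, was lower at an unadjusted p under 0.05. Among all genes tested 1.72% were higher and 2.07% lower at that p. SCNN1G, the gamma subunit of the epithelial sodium channel, differed by 0.49 (SE 0.192) and the chloride transporter SLC26A9 by 1.14 (SE 0.492), both higher in all 4 numbers. The chloride channel CFTR differed by -0.19 (SE 0.249).

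SPON2, a secreted pattern recognition protein, and ATP2A3, a calcium pump of the endoplasmic reticulum, belonged to the 40 genes whose effect differed between times without having been called at 2 h. SPON2 was at 3.25, 1.23, 0.481 and 0.596 CPM in the flagellin libraries, against 5.88, 4.32, 1.11 and 1.31 CPM in the PBS libraries, and its difference was -1.24 at 24 h, against 1.14 at 2 h (change -2.37, adjusted p = 0.0271). ATP2A3 was at 18.2, 14.6, 8.45 and 7.41 CPM in the flagellin libraries, against 25, 22.8, 10.8 and 10.8 CPM in the PBS libraries, and its difference was -0.50 at 24 h, against 0.55 at 2 h (change -1.04, adjusted p = 0.0215). In both the sign of the difference was negative at 24 h and positive at 2 h, and neither time passed on its own.

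Some antigen presentation genes were slightly higher in flagellin. ERAP1, which trims peptides for MHC class I, differed by 0.31 (SE 0.0805). The immunoproteasome subunit PSMB10 differed by 0.41 (SE 0.119), the proteasome activator PSME2 by 0.21 (SE 0.0714) and tapasin, TAPBP, by 0.26 (SE 0.0924). All 4 genes were higher in every number, which was a condition for naming them. They were the 4 of 13 tested members at an unadjusted p under 0.05, with 0 lower and a median of 0.15. The share higher at that p over all genes tested was 1.72%. By number the medians were 0.29, 0.02, 0.16 and -0.04, and without flagellin replicate 1, as in replicates 3 and 4 alone, the fitted median was 0.019. MOV10, an RNA helicase with antiviral activity, was at 102, 104, 112 and 104 CPM in the flagellin libraries, against 75.6, 79.1, 97.4 and 88.8 CPM in the PBS libraries, without overlap. The 28 interferon-stimulated genes had a median of 0.03, with 0.30, 0.02, -0.35 and -0.08 by number and 1 higher at an unadjusted p under 0.05.

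The remaining lists had few members at an unadjusted p under 0.05. The 34 immediate early and MAP kinase feedback genes had 0 members at an unadjusted p under 0.05 in either direction and 0 of 1 direction in all 4 numbers. DUSP1, the phosphatase that switches off p38, differed by 0.12 (SE 0.149) and ZFP36, which destabilises cytokine mRNA, by 0.20 (SE 0.192). Junction and barrier genes, 18 tested, had a median of 0.01 with 0 at an unadjusted p under 0.05. Cell cycle genes, 28 tested, had a median of 0.07 that hid opposite values by number, 0.03, 1.07, 0.04 and -0.90.

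Counts at an unadjusted p under 0.05 and median log2 differences follow for the lists not yet described. Over all genes tested 1.72% were higher and 2.07% lower at that p. Pattern receptors other than TLR5 had 1 of 14 tested members higher, which was PGLYRP2, 0 lower and a median of -0.02. Genes of prostaglandin and lipid mediators had 1 of 15 higher, 0 lower and a median of 0.05. Those of proteases and repair had 2 of 26 higher, 0 lower and a median of 0.08. Oxidant defence, with 19 members, glycolysis and hypoxia, with 22, and sterol and fatty acid synthesis, with 22, had 0 higher and 0 lower and medians of 0.14, 0.10 and 0.13. Markers of ionocytes, tuft and neuroendocrine cells, rare types of the airway lining, had 0 of 8 higher and 1 lower, the kinase gene DCLK1, and a median of -0.54, with -0.08, -1.81, -0.16 and -0.18 by number, so that replicate 2 was apart here too.

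Among cells that such a culture should lack, fibroblast and smooth muscle markers had levels of 4.44, 4.78, 5.35 and 5.28 in flagellin, against 4.34, 4.57, 5.17 and 4.99 in PBS, on the mean log2 scale over 8 genes, which is higher in flagellin in all 4 numbers. The medians of the matched differences over the 12 tested members were -0.05, -0.35, 0.21 and 0.24, below 0 in replicates 1 and 2. Of these members 1, the fibrillin gene FBN1, was higher and 0 were lower at an unadjusted p under 0.05, where 1.72% of all genes tested were higher. Endothelial and leukocyte markers, with 5 and 8 tested members, had 0 higher and 0 lower. Their part in the results was not tested. ACTA2, the actin of smooth muscle and myofibroblasts, had at most 5 counts in any library, and COL1A1 was at 1.47 to 14.3 CPM. The endothelial cadherin CDH5 had at most 1 count, whereas PECAM1, another endothelial marker, was at 2.68 to 5.30 CPM.

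**Figure D5:**
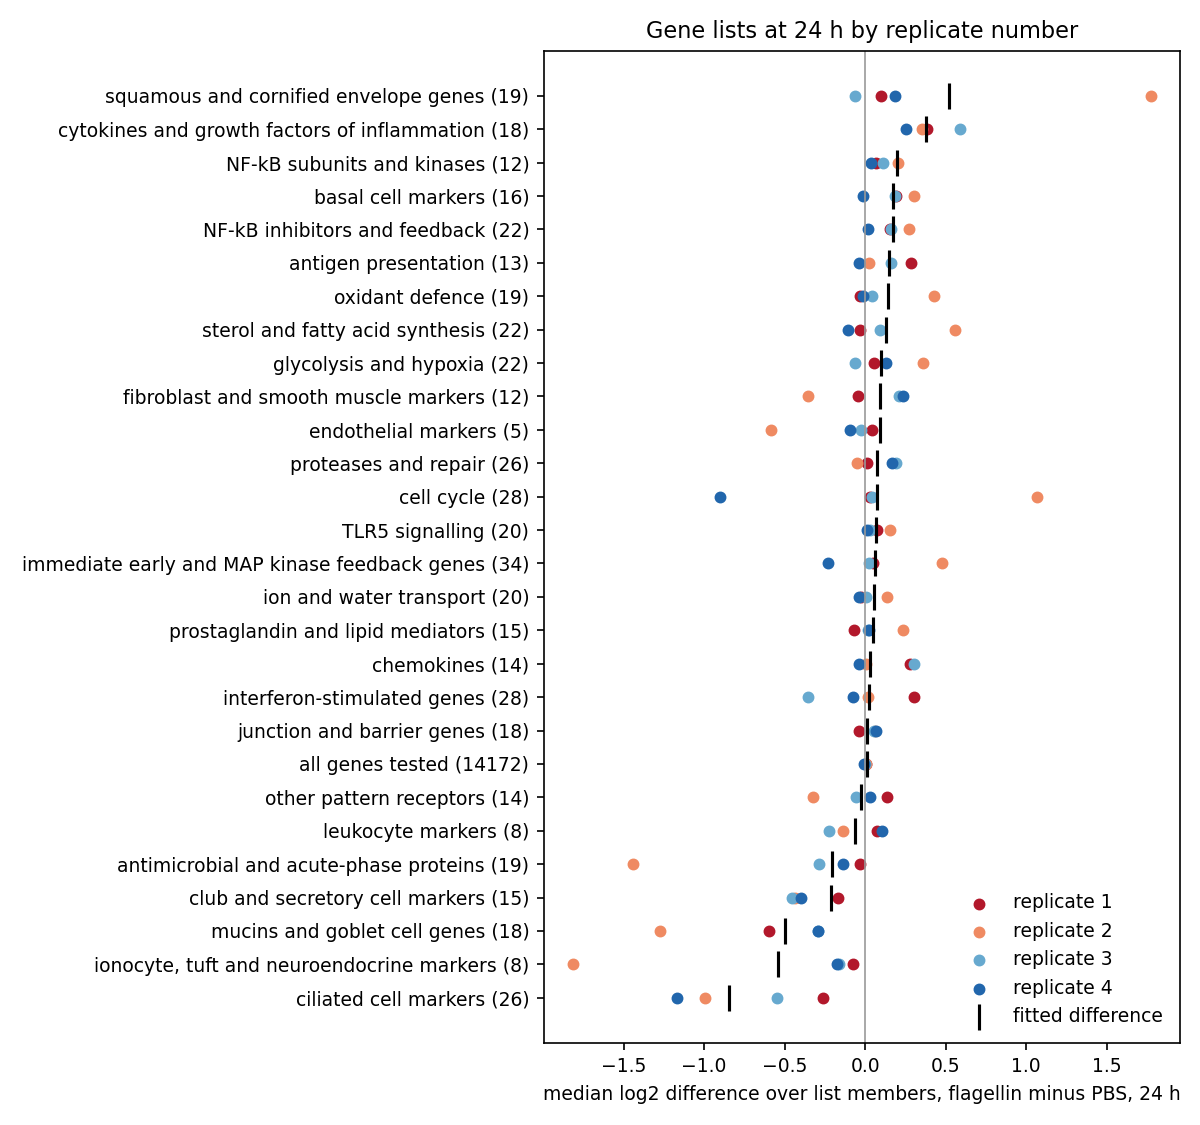
Median log2 difference, flagellin minus PBS, at 24 h over the tested members of each gene list (their number in brackets) and over all genes tested; coloured points are the medians of the matched differences of each replicate number and black bars those of the fitted differences. Cytokines are above 0 in every number (0.39, 0.35, 0.59 and 0.26), ciliated and goblet cell lists below 0 in every number, and replicate 2 lies apart in the squamous list at 1.77.

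In the coordinates of the deposited table, IL1A (ENSSSCG00000008090) at chromosome 3, 43718427 to 43731120, S100A12 (ENSSSCG00000032857) at chromosome 4, 96225329 to 96229939 and PGLYRP2 (ENSSSCG00000025560) at chromosome 2, 62134533 to 62140229. CXCL8 (ENSSSCG00000008953) at chromosome 8, 69932644 to 69935861, TNFAIP3 (ENSSSCG00000004154) at chromosome 1, 26473935 to 26489776 and CD83 (ENSSSCG00000021576) at chromosome 7, 10359211 to 10387002. On the lower side, ERN2 (ENSSSCG00000040637) at chromosome 3, 22509773 to 22537875, MUC5AC (ENSSSCG00000033382) at chromosome 2, 757933 to 789977 and HSD11B2 (ENSSSCG00000002777) at chromosome 6, 28083955 to 28089672. Counts are over each gene as a whole, and the pig assembly behind these coordinates is not given in the sources used here.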

How the data were processed

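RNA of 24 libraries was counted by the authors, who deposited a table of raw whole-number counts. STAR 2.4.0a, Subread 1.4.6-p1 and featureCounts are named in the submitters' processing notes, as is GRCm38, a mouse build, whereas per the file headers the counts are of pig genes. Whether strand was used in counting is not stated, and overlapping genes cannot be told apart. Of 31868 features, 25880 were pig genes; 5888 bacterial features and 100 spike-in or phiX features (0.00131% of all counts) were left out. Symbols came from identifiers (14857 genes) or, for 1592 genes, from overlap with exactly 1 RefSeq gene of Sscrofa11.1 by at least 0.5 of both spans; where both were had (12522 genes), 94.7% gave the same name. No 2 libraries of a group were duplicates by a chi-square test of their counts.

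Counts were scaled with TMM, filtered with filterByExpr (14172 genes) and fitted over all 24 libraries with edgeR 4.0.16 in R 4.3.3 (robust quasi-likelihood F test, 12 residual degrees of freedom), with 1 term per group and the replicate number as a block within each time. P-values are two-sided and were adjusted by the Benjamini-Hochberg method across all genes tested, with a threshold of 0.05. An SE is the absolute log2 difference divided by the square root of F. Matched log2 differences use a prior count of 2. Marker levels are means of log2(CPM + 0.5) over list members with a mean of at least 1 CPM over all libraries. CPM of the cell identity markers with a range over the 8 libraries (EPCAM, CDH1, COL1A1, PECAM1) and the limit for a count of 0 use plain totals. The block was used because same-numbered libraries deviated together: the correlation of deviations from the group means over genes was 0.79, 0.587, 0.765 and 0.743 for replicates 1 to 4. Other numbers of the same set gave 0.533 to 0.766, so the numbers mark the sets 1 and 2 against 3 and 4 more than single pairs.

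Named genes were a panel and up to 4 members per list with the smallest p and 1 direction in all 4 numbers. With them came the 12 higher and 12 lower genes with the smallest p of that kind. Genes called at 2 h with the 8 largest differences at 24 h or the 8 largest changes were also named. ICAM1, MMP7 and S100A8 were added after their values were seen. DCLK1, FBN1 and MSRB1 are named only where a count or range refers to them. KRT5 and KRT13 of the panel had no row by symbol. The 27 lists hold 586 symbols, of which 481 were tested. The members and lists were chosen with earlier results of these data known. Alternatives were another or no block, subsets of libraries, RLE scaling, 2 other count filters, limma 3.58.1, DESeq2 1.42.0 and leaving out each library or pair.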

Additional observations from a re-analysis of the deposited data

Results flagged for a closer look

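In a group of 4, a library is listed where its distance to the next one exceeds Dixon's 95% critical share of the group's range. Chance alone gives this in about 5% of groups whose libraries share a common level. Each group here holds the 2 sets of libraries, so that rate does not apply to genes whose levels differ between the sets. In all, 182 groups of values were looked at and 20 libraries were marked. Flagellin replicate 1 stood above the other 3 flagellin libraries in secretory and defence genes: MUC5AC (1310.0 CPM), MUC5B (95.4), TFF3 (123), CLCA1 (74.9), PIGR (663), LCN2 (146), BPIFA1 (96.4), BPIFB1 (46.6), SCGB3A1 (139), WFDC2 (1188), SAA3 (88.4), CCL2 (13.8) and the cilia gene DNAI1 (0.508). MUC5AC in PBS at 24 h was at 2307 and 1733 CPM in replicates 1 and 2, against 391 and 544 CPM in replicates 3 and 4. In flagellin, replicate 2 was at 264 CPM, so replicate 1 was marked as the only high library of its set. Flagellin replicate 2 was apart in 6 genes, highest in CRNN (1613 CPM), TGM1 (404), KLK10 (188), PTGS2 (284) and SLC26A9 (13.8) and lowest in ICAM1 (130.1). In PBS, replicate 2 was highest in TNIP1 (101 CPM).

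The flagellin effect differed between 24 h and 2 h in 15 of the named genes. On the log2 scale the effect at 24 h minus that at 2 h was -1.59 for IL1A, -2.69 for TNFAIP3, -2.88 for IRF1, -3.23 for CD83, -3.05 for CXCL8, -3.98 for CXCL2, -3.56 for LIF, -1.79 for CSF1, -1.86 for ZC3H12A, -2.30 for NFKBIA, -2.06 for NFKBIZ, -4.27 for RND1, -3.24 for CCL2, -1.04 for ATP2A3 and -2.37 for SPON2.

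Bacterial features, which entered no comparison, were at 16.7 CPM in flagellin replicate 3, above the PBS libraries at 24 h (6.085 to 10.1 CPM).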

How the results depend on the processing

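At 24 h 0 genes passed with no replicate block (112 at an unadjusted p under 0.05), with the block over both times (390), with a term for the set of libraries (535), in the 24 h libraries alone (470), in the 8 libraries alone (651), with RLE (549), no count filter (597) or a 1 CPM minimum (454), by limma (612), in replicates 1 and 2 alone (415) and without any 1 library or pair. DESeq2 called 3 higher and 1 lower, replicates 3 and 4 alone 2 higher (S100A12, adjusted p = 0.017, and MMP7, a matrix protease, 0.84, adjusted p = 0.0428), and leaving out 5 libraries low in secretory markers, chosen after the data were seen, 2 higher with either the block or the set term.

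Without the replicate block the genes with a smaller effect at 24 h than at 2 h numbered 6, all of them among the 40 with the block; the counts were 2 in replicates 1 and 2 alone, 96 in replicates 3 and 4 alone, 87 by DESeq2, 64 without the 5 libraries and 79 with the set term in addition. With libraries left out they were 23 to 40, with 26 without flagellin replicate 4 and 23 and 25 without both libraries of replicate 3 or 4. Those with a larger effect numbered 1 with the set term, 5 in replicates 3 and 4 alone, 1 with no filter, 5 by DESeq2, 1, 3 and 5 in the added fits and 0 to 2 with libraries left out. At 2 h the higher genes numbered 42 and the lower ones 4 without the replicate block, 16 and 0 in replicates 1 and 2 alone, 287 and 265 by DESeq2; higher genes were 301 and 375 without the 5 libraries, and lower ones 37 with the block over both times, 27 in replicates 3 and 4 alone, 62 with no filter, 165 and 296 in the added set term fits and 49 to 127 with libraries at 24 h left out (49 and 56 without both libraries of replicate 3 or 4, 62 without flagellin replicate 4). The cause of these shifts was not tested.

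Small log2 differences changed sign. LIF was at -0.018 without the replicate block, -0.121 in replicates 1 and 2, -0.013 by limma and -0.261 to 0.284 with libraries left out (-0.226 without flagellin replicate 3). In replicates 1 and 2 alone TNF was at -0.151, SAA3 at -0.715 and MMP7 at -0.467. In replicates 3 and 4 alone RND1 was at -0.067, AMCF-II at 0.236, CCL2 at 0.143, ZFP36 at -0.169, DUSP1 at -0.049, CFTR at 0.057 and DUOX2 at -0.071. In the fits without low libraries AMCF-II was at 0.349, 0.368 and 0.339, SCGB1A1 at 0.226, and CFTR at 0.041 and 0.073. With libraries left out TNF ranged from -0.918 to 1.154 (-0.213 without both libraries of replicate 3, -0.738 without PBS replicate 1, 1.058 without PBS replicate 2), RND1 from -0.152 to 0.224 (-0.139 without PBS replicate 1, 0.201 without PBS replicate 2) and AMCF-II from -0.462 to 0.346 (0.222 without PBS replicate 2). ZFP36 ranged from -0.018 to 0.343 (0.327 without flagellin replicate 4), SCGB1A1 from -2.692 to 0.548 (0.106 without both libraries of replicate 2) and MMP7 from -0.036 to 0.537 (-0.008 without both libraries of replicate 3). Depth limits IL20, IL6 and CSF3, and in replicates 3 and 4 TNF and SCGB1A1, which rested on few counts there. It also limits DNAI1 in flagellin replicates 2, 3 and 4.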

Other observations

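Some genes outside the lists gave further small differences. EPAS1, the hypoxia-inducible factor 2 alpha, was at 251, 353, 313 and 304 CPM in the flagellin libraries, against 166, 226, 275 and 266 CPM in the PBS libraries, higher in flagellin in every number by a fitted 0.40 (SE 0.117, adjusted p = 0.973). XPO6, the nuclear exporter of actin, was at 233, 299.6, 254 and 248 CPM in the flagellin libraries, against 211, 229, 205 and 213 CPM in the PBS libraries, with no overlap and a difference of 0.26 (SE 0.0706). EGR4, an immediate early transcription factor named by position, was at 2.43, 3.99, 0.0903 and 0.0568 CPM in the flagellin libraries, against 0.417, 1.08, 0.0619 and 0.0311 CPM in the PBS libraries, so that it was above the counting limit only in replicates 1 and 2. CEP68, a centrosome protein, was lower, at 76.6, 66.9, 66.5 and 62.4 CPM in the flagellin libraries, against 96.8, 88.3, 78.3 and 73.7 CPM in the PBS libraries, a difference of -0.31 (SE 0.0774). Of the antimicrobial list, the ribonuclease RNASE4 was also lower in each number, with a difference of -0.31 (SE 0.103). The oxidase DUOX2 of the same list, which makes hydrogen peroxide at the airway surface, was at 12, 10.0, 4.96 and 4.60 CPM in the flagellin libraries, against 7.32, 8.20, 4.98 and 5.07 CPM in the PBS libraries, higher in flagellin in replicates 1 and 2 and close to PBS in replicates 3 and 4. None of these differences passed the adjusted threshold.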
